A study of Mus musculus with 6 samples.

Results

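Motile cilium genes were followed in RNA of lung endothelial cells, sorted by flow cytometry from mice labelled as wild type (wt). Libraries came from mice aged 18 months (titled Aged, 3 libraries) and from mice aged 8 months (titled mAdu, 3 libraries). No transgene, Cre line or treatment besides age was named, and nothing in the labels tells whether libraries of 1 age came from separate animals. The p-values therefore measure the spread among these libraries, and part of it may be technical. Values are TPM, the relative abundance of a transcript after correction for its length, which is set by the other transcripts of a library too and keeps no read depth. The genes are Fam183b, Foxj1 and all protein-coding genes whose symbols begin with Dnah, Dnai, Dnaaf, Cfap, Rsph, Tekt or Drc, in all 70 genes, of which 68 were measured among the 24520 genes of the table and Dnah3 and Dnah14 were not analysed here. Fam183b was chosen for its difference between the ages in these same libraries, so its values are a description with no test. The other genes were chosen by name at any level.

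A motile cilium is a whip-like organelle built on a ring of paired microtubules, the axoneme, on which dynein motors pull to make it beat. In the lung, motile cilia stand on the ciliated cells of the airway lining, where they move mucus, and the transcription factor FOXJ1 switches on the genes for them, together with factors of the RFX family. Endothelial cells line blood vessels and can carry a single primary cilium, which does not beat and lacks the dynein arms and radial spokes. Fam183b encodes a small protein of ciliated cells that was later counted among the cilia and flagella associated proteins.

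RFX factors bind a sequence called the X-box, whose half-site is GTTGCC, or GGCAAC on the other strand. The sequence before the start of Fam183b is shown first, since it is the gene around which these results turn. It covers the 250 bases upstream of the RefSeq start site on the minus strand of GRCm38.p6 (chr11:58801961-58802210), and the capitals mark half-sites.

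Fam183b: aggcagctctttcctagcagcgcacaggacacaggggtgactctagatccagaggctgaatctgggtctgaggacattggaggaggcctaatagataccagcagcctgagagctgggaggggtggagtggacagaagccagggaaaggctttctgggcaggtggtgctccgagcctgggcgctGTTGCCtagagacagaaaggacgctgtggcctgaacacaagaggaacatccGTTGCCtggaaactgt

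The window held the half-site at 67 and at 16 bases before the start site, and the one nearer the start was part of a full X-box match, GTTGCCTGGAAAC. Further members are shown over 40 bases each, upstream of their start sites, again with half-sites in capitals. All of them were picked for holding a half-site there. Cfap161, Tekt1, Drc1, Cfap58 and Cfap44 are examples whose 18-month libraries all lay above their 8-month libraries, and Cfap298 and Cfap20 are abundant members whose ages overlapped. Other members that were higher without overlap, such as Drc3 and Cfap45, are not shown.

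Cfap161 (chr7:83794883-83794922, minus strand): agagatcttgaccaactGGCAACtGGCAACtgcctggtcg
Tekt1 (chr11:72361883-72361922, minus strand): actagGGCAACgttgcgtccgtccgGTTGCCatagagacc
Drc1 (chr5:30281353-30281392, plus strand): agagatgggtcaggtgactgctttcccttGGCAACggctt
Cfap58 (chr19:47937636-47937675, plus strand): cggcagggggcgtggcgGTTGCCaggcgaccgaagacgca
Cfap44 (chr16:44394759-44394798, plus strand): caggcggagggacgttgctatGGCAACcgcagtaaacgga
Cfap298 (chr16:90934887-90934926, minus strand): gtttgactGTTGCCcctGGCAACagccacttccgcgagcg
Cfap20 (chr8:95434941-95434980, minus strand): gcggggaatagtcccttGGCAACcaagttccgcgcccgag

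RefSeq windows of 300 bases, 250 before and 50 after the start site, were found for 58 of the 70 members. The half-site GTTGCC, searched on both strands, was present in 23 of these 58 genes (39.7%), against 14.1% of all 26994 genes with a window. Of the members with a window, it was present in 8 of the 16 that were higher at 18 months without overlap, in 0 of the 4 that were lower without overlap, and in 15 of the 37 whose ages overlapped. The X-box, searched on both strands as GTTNCC and GGNAAC separated by 1 to 3 bases, which can overlap the half-site match, matched in 2 of the 58, Fam183b and Cfap298, against 0.904% of all genes. A forkhead motif of the kind FOXJ1 binds, GTAAACA on either strand, matched in 4 of the 58 (6.90%), against 4.05% of all genes. The motifs were chosen with the Fam183b sequence in view, and a match is a description of the letters in the window. Cfap298 and Cfap20, whose ages overlapped, held half-sites as well. Whether a half-site goes with the difference between the ages was not tested.

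The 18-month libraries held Fam183b at 7.54, 6.71 and 6.39 TPM, against 1.91, 1.62 and 2.09 TPM at 8 months. Every 18-month library was above every 8-month library, with a wide gap between the lowest of the one age and the highest of the other. The 18-month mean of 6.88 ± 0.594 TPM and the 8-month mean of 1.87 ± 0.239 TPM (SD, n = 3) stood at a ratio of 3.67. On the scale of log2(TPM + 1), which understates the change of low genes, the difference was 1.46 (SE 0.16). The gene spans chr11:58792797-58801960 on the minus strand of GRCm38 in GENCODE release M21, and no other annotated gene overlapped that span. Its nearest protein-coding neighbours are olfactory receptor genes, Olfr314 at 4029 bases on one side and Olfr313 at 13040 bases on the other, and both were listed at 0 in all 6 libraries.

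Set against the rest of the group, Fam183b had the highest log2 difference of the 33 members that averaged 1 TPM or more. On the scale of log2(TPM + 0.1), which keeps more of the change of low genes, it ranked 3rd of the 67 members above 0, after Tekt4 and Drc1. Fam183b lay above the mean log2 level of the other members by 2.18, 2.42 and 2.33 on that log2 scale in the 18-month libraries and by 1.01, 0.81 and 0.83 in the 8-month libraries. This excess was larger by 1.43 at 18 months. Among members at 1 TPM or more it headed the order, and the scarcer Tekt4 and Drc1 lay above it on the second scale. All of this is a description, since this contrast chose the gene.

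**Figure D1:**
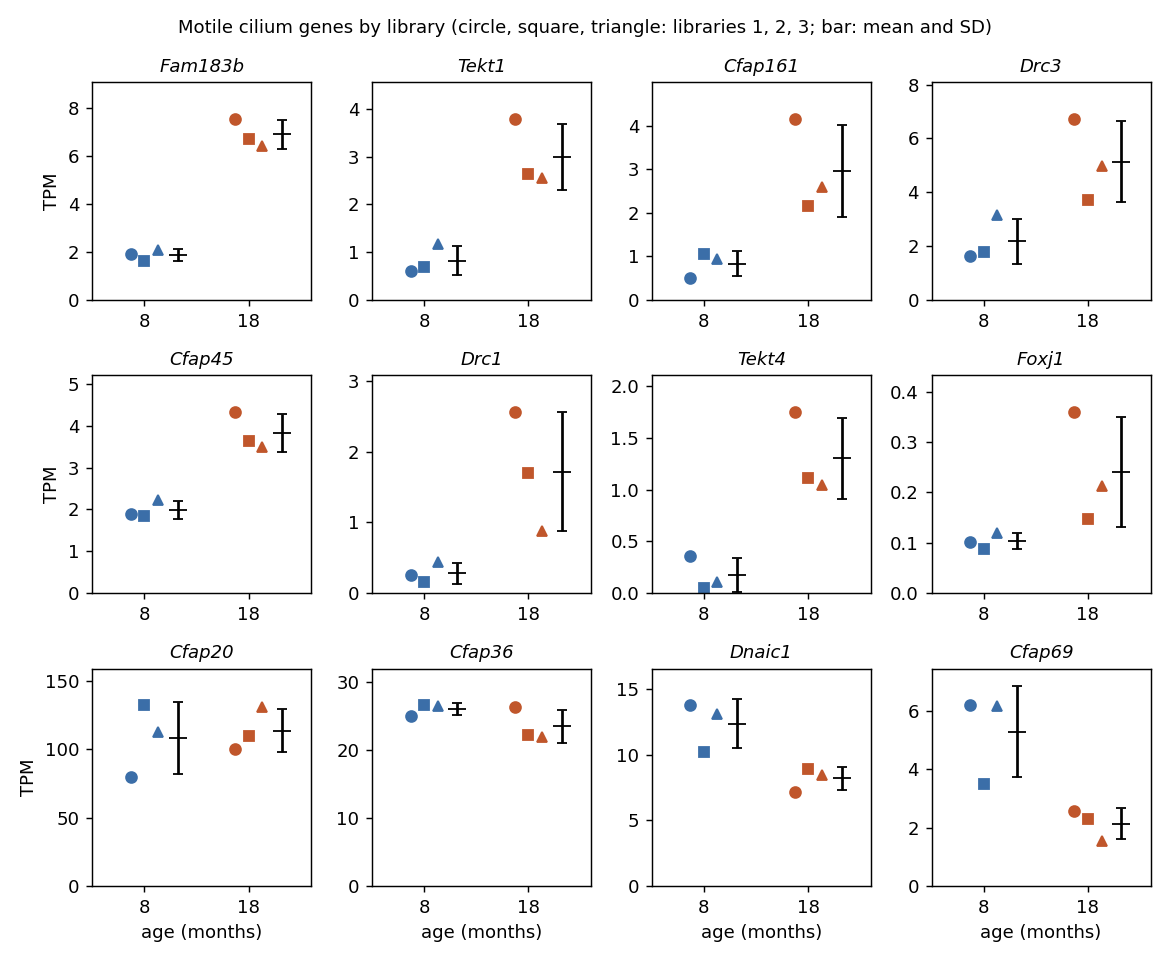
TPM (vertical axis of each panel, starting at 0) of 12 motile cilium genes in the 3 libraries of 8 months (blue) and the 3 of 18 months (orange), with marker shapes for the library number and black bars for the mean and SD of each age (n = 3). In the upper 8 panels, from Fam183b to Foxj1, the 18-month points lie above all 8-month points. Cfap20 and Cfap36 overlap, and Dnaic1 and Cfap69 lie lower at 18 months.

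Most members were scarce. Of the 68 measured genes, 33 averaged 1 TPM or more across the libraries, 34 lay above 0 but under 1 TPM, and Dnah8 was listed at 0 throughout. Cfap20, at 110.9 TPM, was the most abundant, and the median over the measured members was 0.997 TPM. In the table as a whole, the median gene lay at 1.29 TPM. Because depth is unknown, values under 1 TPM may rest on few reads, and no counting error can be given for them.

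A higher mean at 18 months was found in 48 of the 66 members other than Fam183b that lay above 0, or 72.7%, whereas 36.8% of all 19206 genes above 0 had a higher mean at 18 months. In 18 of the 66, every 18-month library lay above every 8-month library, against 4.7% of all genes, and in 4 every 18-month library lay below, against 11.7% of all genes. The 34 members above 0 but under 1 TPM held 28 of the 48, where 43.3% of all genes of that level had a higher mean. They held 11 of the 18, where 5.13% of all genes of that level were higher without overlap, and 1 of the 4 that were lower, where 6.64% were. All 11 lay between 0.1 and 1 TPM, a band of 29 members, where 6.76% of all genes were higher without overlap and 8.7% lower, against 0 of the members. The 32 members at 1 TPM or more held 20 with a higher mean (33.6% of all genes), 7 higher without overlap (4.48%) and 3 lower (14.2%). Their mean log2(TPM + 0.1) overlapped between the ages, at 2.45, 2.18 and 2.23 at 18 months against 1.94, 1.96 and 2.24 at 8 months, whereas that of the members under 1 TPM did not, at -0.79, -1.32 and -1.34 against -1.78, -1.86 and -1.47.

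The counts moved with the scaling and with the libraries used, and so did those of all genes. With median-of-ratios scaling, 52 of the 66 members had a higher mean (50.1% of all genes), 19 were higher without overlap (7.63%) and 3 lower (8.48%). With quantile normalization the members numbered 50 (48.3%), 22 (7.5%) and 4 (9.21%). Leaving out the first 18-month library gave 42 members with a higher mean (32.9%), 19 higher without overlap (7.81%) and 7 lower (22.7%). Leaving out the second gave 50 (41.4%), 24 (8.86%) and 5 (13.8%), and leaving out the third gave 47 (36.7%), 21 (7.52%) and 4 (16.2%). For the 8-month libraries, the counts were 44 (36.3%), 20 (6.73%) and 7 (21.5%) without the first, 46 (42.4%), 20 (8.74%) and 5 (15.2%) without the second, and 49 (38.4%), 26 (8.39%) and 4 (17.9%) without the third. In each of these settings, the members' share of higher genes was above that of all genes.

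**Figure D2:**
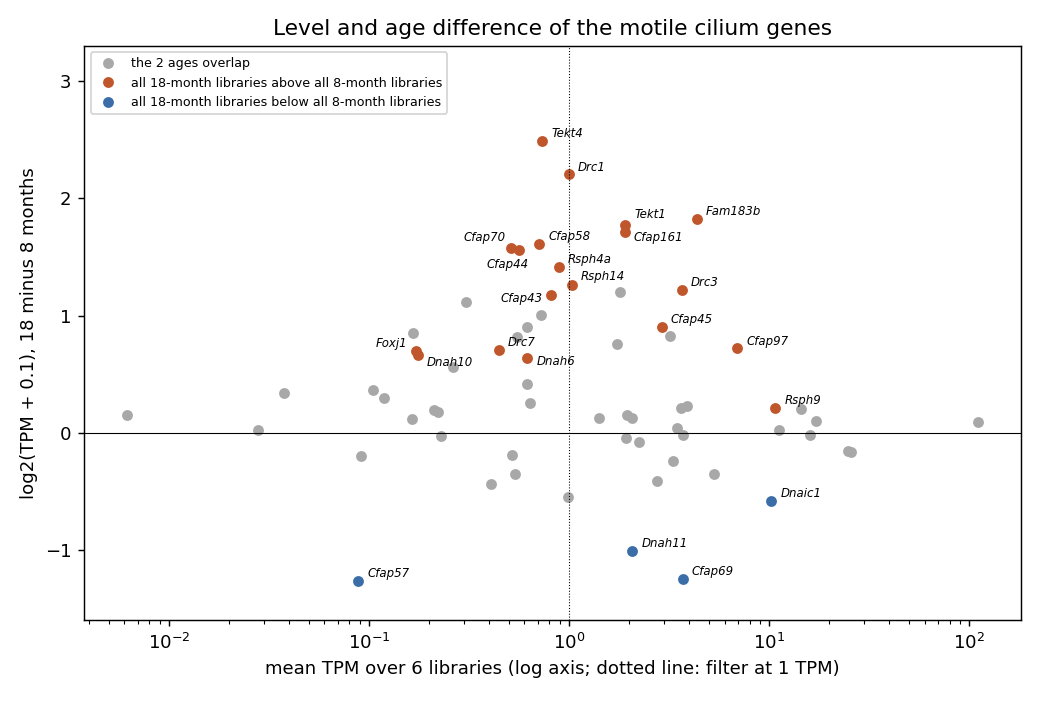
Mean TPM over the 6 libraries (horizontal log axis) against the difference in log2(TPM + 0.1), 18 minus 8 months (vertical axis), 1 point for each of 67 members above 0. Orange points, 19 with Fam183b, are genes whose 18-month libraries all lie above their 8-month libraries, blue points are the 4 in which they all lie below, and grey points overlap. The most abundant members sit near 0, and the highest points lie at the middle and lower levels.

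The limma test, run over the 12748 genes that averaged 1 TPM or more, called 0 of the 32 other members that it covered, and 3 genes in all (0.0235%), 1 higher (0.00784%) and 2 lower (0.0157%) at 18 months. The lowest limma adjusted p among the members was 0.128, for Tekt1. At an unadjusted p under 0.05, limma gave 6 members as higher (3.45% of all genes tested) and 3 as lower (9.99%). With no filter on low values limma again called none of 66 members and 0% of 19206 genes, and at an unadjusted p under 0.05 it gave 17 members as higher (3.48% of all genes) and 3 as lower (7.99%). The median log2 difference of the 32 tested members was 0.085, beside -0.079 over all genes tested. So no single member passed, and the description of the group rests on its counts.

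Among the tektins, filament proteins that run inside the paired microtubules, Tekt1 lay at 3.80, 2.64 and 2.55 TPM at 18 months against 0.610, 0.688 and 1.17 TPM at 8 months. Its ages did not overlap, and its log2 difference was 1.13 (SE 0.22, limma adjusted p = 0.128). Tekt4 was scarcer, at 1.75, 1.11 and 1.04 TPM against 0.361, 0.0522 and 0.107 TPM, with a ratio of means of 7.52, the highest ratio of any member whose 18-month libraries all lay above its 8-month libraries. The remaining tektins did not follow. In order of 18 and then 8 months (SD, n = 3), Tekt2 averaged 2.16 ± 0.875 and 1.98 ± 0.786 TPM, Tekt3 averaged 2.37 ± 0.644 and 3.14 ± 0.553 TPM, and Tekt5, the most abundant tektin, averaged 15.8 ± 2.01 and 16.2 ± 3.44 TPM. In each of these the libraries of the 2 ages overlapped.

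The nexin-dynein regulatory complex links neighbouring microtubule pairs and turns sliding into bending. The 3 of its genes that carry a Drc symbol were higher in every 18-month library, against 4.7% of all genes above 0. Drc1, a scaffold of that complex, lay at 2.56, 1.69 and 0.884 TPM at 18 months against 0.250, 0.153 and 0.442 TPM at 8 months, a ratio of 6.08. Drc3 lay at 6.74, 3.71 and 4.98 TPM against 1.62, 1.79 and 3.15 TPM, with a log2 difference of 0.95 (SE 0.26, limma adjusted p = 0.195). The lowest 18-month library of Drc3 stood just above the highest 8-month library. Drc7 lay at 0.533, 0.583 and 0.607 TPM against 0.398, 0.347 and 0.217 TPM. Genes of the complex with other names did not all do so. Ccdc65, Iqcg and Tcte1 were higher without overlap, whereas Gas8 overlapped at 10.5 ± 0.703 and 10.6 ± 1.01 TPM at 18 and 8 months (SD, n = 3), and Fbxl13 overlapped at 0.843 ± 0.0874 and 0.808 ± 0.179 TPM.

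Radial spokes reach from the microtubule pairs towards the centre of the axoneme and pass signals to the dyneins. All 8 spoke genes had a higher mean at 18 months (36.8% of all genes above 0), and 3 were higher without overlap (4.7%). Rsph4a, a spoke head protein, lay at 2.29, 0.922 and 0.882 TPM at 18 months against 0.317, 0.306 and 0.644 TPM at 8 months. Rsph14 lay at 1.56, 1.06 and 1.88 TPM against 0.363, 0.712 and 0.645 TPM (limma adjusted p = 0.25). In Rsph9, also of the spoke head, the gap was narrow, with 10.9 TPM in the lowest 18-month library against 10.5 TPM in the highest 8-month library (limma adjusted p = 0.572). Rsph1 lay at 5.60, 3.0 and 3.62 TPM against 1.74, 1.58 and 3.74 TPM, where the third 8-month library alone reached into the range of 18 months. The more abundant spoke genes overlapped, with Rsph10b at 17.8 ± 2.17 and 16.6 ± 1.49 TPM, Rsph3a at 15.4 ± 0.232 and 13.4 ± 1.88 TPM, and Rsph3b at 11.3 ± 1.85 and 11.1 ± 1.21 TPM at 18 and 8 months (SD, n = 3). Rsph3a and Rsph3b are close copies of each other, so the way reads were shared between them is uncertain. Rsph6a was listed above 0 in a single library.

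The dynein heavy chains are the motors themselves, and 12 of the 13 measured lay above 0. None had a mean above that of Dnah2, which averaged 3.68 ± 0.411 and 3.74 ± 0.570 TPM at 18 and 8 months (SD, n = 3). Dnah12, of the inner arms, lay at 2.18 ± 0.431 and 2.29 ± 0.158 TPM, and both of these genes overlapped between the ages. Of the 12 heavy chains above 0, 2 were higher without overlap (4.7% of all genes above 0) and 1 lower (11.7%). Dnah6 lay at 1.02, 0.667 and 0.657 TPM at 18 months against 0.388, 0.503 and 0.490 TPM at 8 months, and Dnah10 at 0.287, 0.218 and 0.205 TPM against 0.114, 0.0664 and 0.166 TPM. Dnah5, the outer-arm chain that is often mutated in primary ciliary dyskinesia, lay at 0.431, 0.115 and 0.199 TPM against 0.0315, 0.0872 and 0.137 TPM, where 1 library of 18 months lay inside the 8-month range. Dnah11, an outer-arm chain, went the other way without overlap, at 1.85, 1.35 and 0.879 TPM against 2.50, 2.15 and 3.74 TPM (log2 difference -0.68, SE 0.24, limma adjusted p = 0.28). Of the Dnah11 exons, 4.44% overlap those of Cdca7l on the opposite strand, and the labels do not state that the kit keeps strand. Dnah7a, Dnah7b and Dnah7c are near-identical copies with means of at most 0.212 TPM, and their values are uncertain.

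The intermediate chain Dnaic1, which anchors outer-arm dynein, was among the lower members. It lay at 7.18, 8.92 and 8.46 TPM at 18 months against 13.8, 10.2 and 13.1 TPM at 8 months, without overlap, with a log2 difference of -0.53 (SE 0.16, limma adjusted p = 0.212). Dnaic2, its partner in the same dynein arm, lay at 0.437, 0.239 and 0.732 TPM against 0.732, 0.363 and 0.721 TPM and overlapped. Neither of the partners had a higher mean at 18 months, which 36.8% of all genes above 0 had. The assembly factors fold and join dyneins in the cytoplasm. Of these 4, 1 had a higher mean at 18 months (36.8% of all genes above 0). None of the 4 was higher (4.7%) or lower (11.7%) without overlap. Dnaaf2 lay at 4.65 ± 0.739 and 5.99 ± 1.23 TPM, Dnaaf5 at 3.02 ± 0.280 and 3.61 ± 0.646 TPM and Dnaaf3 at 1.86 ± 0.626 and 2.01 ± 1.04 TPM at 18 and 8 months (SD, n = 3). Dnaaf1 was the 1 with a higher mean, at 0.743, 0.483 and 0.184 TPM against 0.118, 0.105 and 0.206 TPM. Of the Dnaaf1 exons, 20.7% overlap those of Taf1c on the opposite strand, at 4.88, 1.88 and 0.70 TPM against 3.54, 5.49 and 4.20 TPM. Of the Dnaaf2 exons, 32.65% overlap those of a gene on the opposite strand. On the same strand, 22.33% overlap those of Gm49383 and 20.65% those of Gm49384, for which no values were given. For Dnaic1, 0.54% of the exons overlap those of Enho on the opposite strand. Enho lay at 42.6, 41.4 and 48.5 TPM at 18 months against 79.2, 50.2 and 76.3 TPM at 8 months. What these overlaps add to the values was not tested.

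The cilia and flagella associated proteins are a mixed family of 31 genes, of which 23 had a higher mean at 18 months (36.8% of all genes above 0). In 7 the 18-month libraries were all higher (4.7% of all genes above 0) and in 2 all lower (11.7%). Cfap161, a protein of the inner wall of the microtubule pairs, lay at 4.16, 2.15 and 2.59 TPM at 18 months against 0.504, 1.06 and 0.937 TPM at 8 months, and its log2 difference was 1.09 (SE 0.25, limma adjusted p = 0.155). Cfap45, also of the inner wall, lay at 4.33, 3.64 and 3.50 TPM against 1.89, 1.85 and 2.24 TPM, a log2 difference of 0.69 (SE 0.17, limma adjusted p = 0.18). In neither gene did the ages overlap. At 8 months the mean and SD were 0.835 ± 0.294 TPM for Cfap161 and 1.99 ± 0.211 TPM for Cfap45 (n = 3), so the spread was small for its level in Cfap45 alone.

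Cfap43 and Cfap44, which are needed for the sperm tail and tether inner-arm dynein, were scarce and higher at 18 months. Cfap43 lay at 1.43, 1.15 and 0.864 TPM against 0.562, 0.225 and 0.644 TPM, and Cfap44 at 1.26, 0.670 and 0.711 TPM against 0.200, 0.119 and 0.407 TPM. Cfap58 lay at 1.09, 0.842 and 1.40 TPM against 0.501, 0.201 and 0.227 TPM. Cfap70, a partner of the outer dynein arm, stood just apart, at 0.831, 0.571 and 0.909 TPM against 0.0374, 0.164 and 0.554 TPM. Cfap97 was more abundant, at 8.83, 6.86 and 10.2 TPM against 4.99, 6.66 and 4.05 TPM (limma adjusted p = 0.25).

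Several members of this family were present at higher levels and did not separate the ages. Cfap20, which seals the junction inside the microtubule pair, lay at a mean of 113.6 ± 15.8 and 108.3 ± 26.4 TPM at 18 and 8 months (SD, n = 3). The 95% interval of its log2 difference ran from -0.35 to 0.53. Cfap298, a dynein assembly gene, lay at 24.2 ± 3.15 and 27.0 ± 2.05 TPM and Cfap36 at 23.5 ± 2.40 and 26.1 ± 0.932 TPM, with intervals from -0.46 to 0.14 and from -0.41 to 0.12. Of the Cfap298 exons, 44.2% overlap those of a gene on the opposite strand. Cfap74, Cfap300, Cfap61 and Cfap77 had 18-month means of 4.14, 3.88, 3.57 and 2.02 TPM and 8-month means of 3.66, 3.39, 3.40 and 1.88 TPM. Cfap69, of the central apparatus and also a gene of olfactory neurons, was lower in every 18-month library, at 2.58, 2.30 and 1.55 TPM against 6.20, 3.48 and 6.18 TPM (log2 difference -0.98, SE 0.24, limma adjusted p = 0.18). Cfap57 lay at 1.32e-08 TPM or less in the 18-month libraries, against 0.237, 0.00521 and 0.290 TPM at 8 months.

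**Figure D3:**
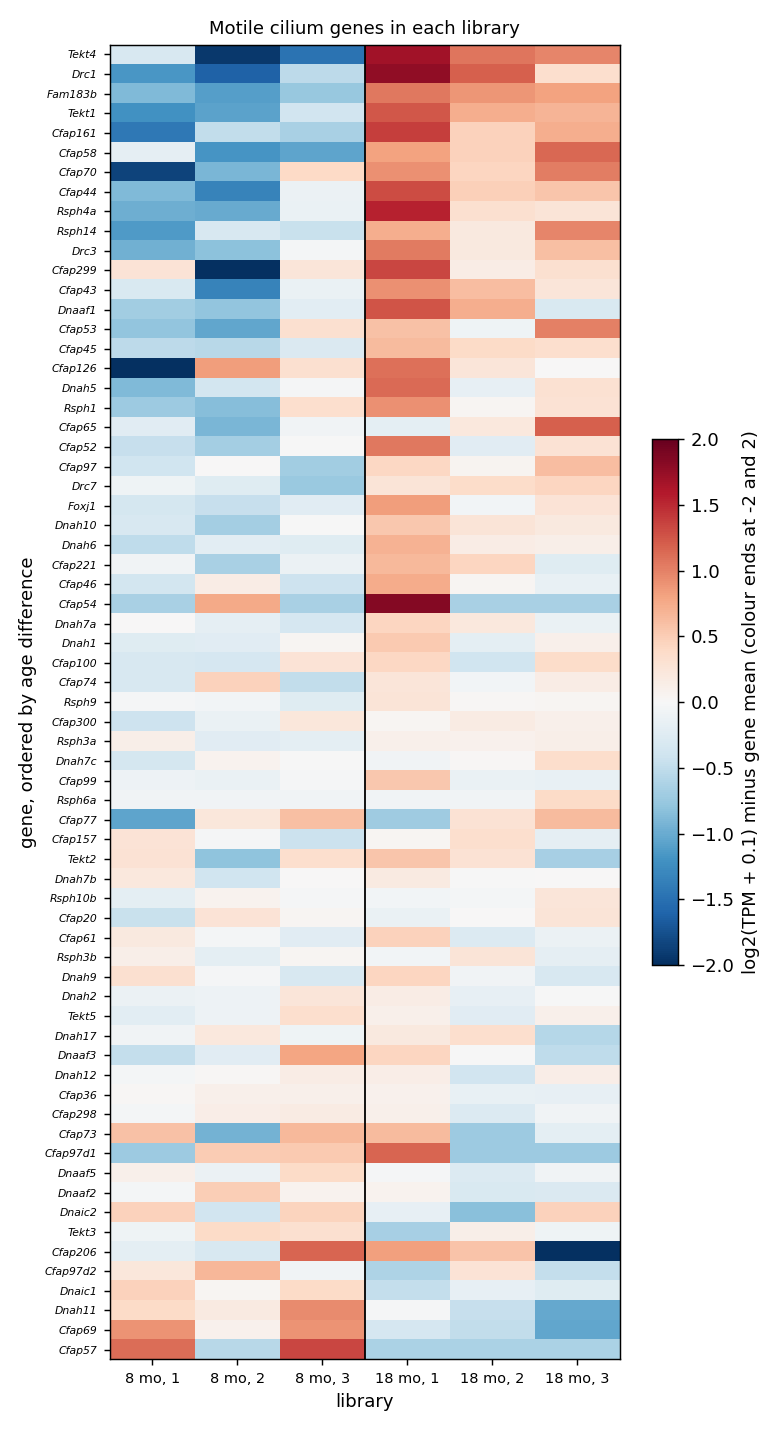
Each row is 1 of the 67 members above 0, ordered by the difference between the ages, and each column 1 library; colour gives log2(TPM + 0.1) minus the mean of that gene over the 6 libraries, red for above and blue for below, ending at -2 and 2. The rows near the top, from Tekt4 and Drc1 downwards, are blue at 8 months and red at 18 months, most strongly in the first 18-month library. A middle block with Cfap20, Rsph10b and Tekt5 is pale throughout.

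Foxj1, the regulator of the programme, was scarce in both ages, at 0.360, 0.148 and 0.212 TPM at 18 months against 0.102, 0.0885 and 0.120 TPM at 8 months. The ages did not overlap, with means of 0.240 ± 0.109 and 0.103 ± 0.0158 TPM (SD, n = 3), although levels this low give little to compare. With no filter on low values its limma adjusted p was 0.456. The libraries did not share the higher values evenly. Of the 19 members that were higher without overlap, Fam183b included, 14 were highest in the first 18-month library, 5 in the third and 0 in the second. Among all genes that were higher without overlap, 43.8% were highest in the first. Of the 19, 11 had their highest 8-month value in the third 8-month library. The matching share over all genes was not computed, so this count cannot be set against other genes.

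Genes of the motile axoneme and its assembly that carry other names were listed apart from the members, and this list, like the members, was drawn up with earlier results of these data known. Of its 60 genes, 58 lay above 0, 50 had a higher mean at 18 months (36.8% of all genes above 0), 28 were higher without overlap (4.7%) and 0 lower without overlap (11.7%). Of the 27 tested, limma called 0 and gave 14 as higher at an unadjusted p under 0.05 (3.45% of all genes tested) and 0 as lower (9.99%). Their median log2 difference was 0.52, beside -0.079 over all genes tested. Pifo, a gene of cilium disassembly, lay at 4.90, 3.56 and 2.29 TPM at 18 months against 0.840, 0.484 and 0.893 TPM at 8 months (limma adjusted p = 0.126). Ak7, an adenylate kinase of cilia, lay at 1.83, 2.02 and 1.41 TPM against 0.264, 0.291 and 0.518 TPM (limma adjusted p = 0.132). Ccdc113 lay at 3.25, 2.92 and 3.03 TPM against 0.560, 0.129 and 1.39 TPM, and Nme9 at 1.56, 2.07 and 1.48 TPM against 0.358, 0.206 and 0.634 TPM (limma adjusted p = 0.149 and 0.155). In all 4 the ages stood apart.

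Another list held genes that act earlier, in switching on multiciliation and multiplying basal bodies. Of 21 such genes other than the members, 10 had a higher mean at 18 months (36.8% of all genes above 0), 2 were higher without overlap (4.7%) and 3 lower (11.7%). Limma called 0 of the 11 tested and gave 0 as higher and 1 as lower at an unadjusted p under 0.05, with a median log2 difference of -0.027. Whether this list differed from the axoneme genes was not tested. Mcidas, which starts the multiciliated programme upstream of FOXJ1, lay at 1.48 ± 0.108 and 1.47 ± 0.353 TPM at 18 and 8 months (SD, n = 3), and Gmnc, also upstream, at 0.0787 TPM or less in any library. E2f5, a partner of that programme with roles in other cells, was lower without overlap, at 6.35, 4.79 and 5.05 TPM against 8.69, 8.24 and 8.77 TPM (limma adjusted p = 0.19). Ift57, Ccdc78 and Cep152 were next by p, with 18-month means of 6.38, 4.62 and 3.89 TPM and 8-month means of 7.91, 3.64 and 3.51 TPM. The RFX genes overlapped as well, with Rfx2 at 6.24 ± 0.613 and 6.03 ± 2.29 TPM and Rfx3 at 2.54 ± 0.883 and 2.26 ± 0.418 TPM.

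Genes shared by motile and primary cilia were listed as well. Of 31 genes of intraflagellar transport, which carries cargo along cilia, 21 had a higher mean at 18 months (36.8% of all genes above 0), 4 were higher without overlap (4.7%) and 1 lower (11.7%). Limma called 0 of 30 and gave 2 as higher and 0 as lower at an unadjusted p under 0.05. Their median log2 difference was 0.10, beside 0.085 for the tested members and -0.079 for all genes tested. Ift81 lay at 10.5 ± 0.860 and 7.91 ± 0.459 TPM (SD, n = 3) and Dync2h1, the motor of return transport, at 3.62, 2.58 and 4.0 TPM against 2.29, 2.04 and 1.80 TPM. Ttc30b lay at 16.3 ± 3.38 and 12.7 ± 0.544 TPM and Traf3ip1 at 4.22 ± 0.506 and 3.09 ± 0.813 TPM. Of 39 genes of the primary cilium above 0, 20 had a higher mean (36.8% of all genes above 0). Without overlap, 3 of the 39 were higher (4.7%) and 1 lower (11.7%). For this list limma called 0 of 34, with 0 at an unadjusted p under 0.05 in either direction (median log2 difference -0.0066). Bbs12, B9d1, Tmem231 and Inpp5e came first by p, with 18-month means of 3.73, 66.5, 7.17 and 15.7 TPM and 8-month means of 2.26, 82.6, 5.61 and 18.5 TPM.

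The sorted cells carried endothelial markers at high levels, with Egfl7 at 4900 ± 349.6 and 5371 ± 793.9 TPM at 18 and 8 months (SD, n = 3), Calcrl at 3525 ± 517.8 and 3707 ± 26.8 TPM and Cldn5 at 1803 ± 128.0 and 2170 ± 144.2 TPM. All 20 listed endothelial markers lay above 0, and 7 were lower (11.7% of all genes above 0) and 0 higher (4.7%) without overlap. Their summed level ran from 18052 to 19861 TPM at 18 months and from 20657 to 22445 TPM at 8 months. Markers of airway ciliated cells outside the members were also present. Of 23 such markers, 20 had a higher mean at 18 months (36.8% of all genes above 0), 14 were higher without overlap (4.7%) and 1 lower (11.7%). Limma called 0 of the 16 tested and gave 13 as higher at an unadjusted p under 0.05 (3.45% of all genes tested) and 0 as lower (9.99%). This list shares 7 genes with the axoneme list above. The mean log2(TPM + 0.1) of the ciliated markers ran from 1.36 to 1.95 at 18 months and from 0.16 to 0.88 at 8 months, without overlap.

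Capsl, a marker with a limma adjusted p of 0.0906, lay at 3.92, 3.36 and 2.37 TPM at 18 months against 0.639, 0.644 and 0.660 TPM at 8 months. Sec14l3 lay at 77.2, 52.6 and 46.8 TPM against 31.5, 21.1 and 44.5 TPM, and Ccdc153 at 9.68, 4.76 and 7.38 TPM against 3.44, 1.46 and 2.09 TPM, and both stood apart. Tppp3, the most abundant gene of that list, lay at 274.4 ± 25.3 and 278.0 ± 13.4 TPM (SD, n = 3) and overlapped between the ages, and Aldh3b1 lay at 36.6 ± 4.74 and 30.5 ± 3.57 TPM. Deup1, of basal body amplification, was the marker that was lower without overlap, at 0.556, 0.369 and 0.619 TPM against 0.643, 0.733 and 0.891 TPM. No ciliated marker was listed at 0 in all libraries. In RNA from a sorted population, more ciliated cells or their RNA among the endothelial cells and more transcript per endothelial cell cannot be told apart, and the part of such cells in the difference of Fam183b and the other members was not tested.

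**Figure D4:**
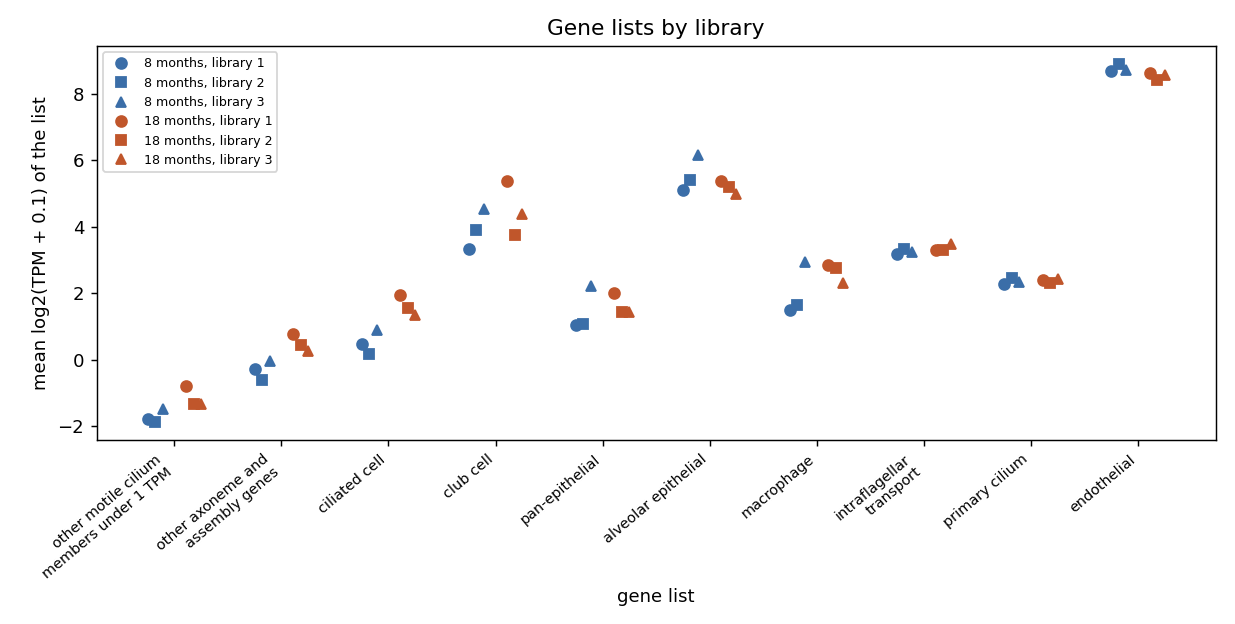
Mean log2(TPM + 0.1) of gene lists (vertical axis) in each library, blue for 8 months and orange for 18 months, with marker shapes for the library number. The ciliated cell markers, the axoneme genes and the motile cilium members under 1 TPM are higher in all 18-month libraries. Members at 1 TPM or more are not drawn and overlap, and the club cell, pan-epithelial, macrophage and alveolar lists overlap between the ages, while the endothelial list is slightly lower at 18 months.

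Within each age, some lists of other airway and lung cells peaked in the same libraries as the cilium genes, and others did not. The mean log2(TPM + 0.1) of the members other than Fam183b was highest in the first 18-month library, at 0.76 against 0.35 and 0.37 in the others, and in the third 8-month library, at 0.30 against -0.00042 and -0.033. Fam183b itself was highest in those libraries, at 7.54 and 2.09 TPM. The ciliated (1.95 and 0.88), club cell (5.38 and 4.54), pan-epithelial (2.02 and 2.21), alveolar epithelial (5.39 and 6.16) and macrophage (2.84 and 2.94) means were highest of their age there too.

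All 14 club cell markers had a higher mean at 18 months (36.8% of all genes above 0), and 1 was higher without overlap (4.7%). The summed level ran from 5827 to 13490 TPM at 18 months and from 6146 to 8158 TPM at 8 months. Scgb1a1, the main secreted protein of club cells, lay at 12297, 9993 and 5224 TPM at 18 months against 5742, 5810 and 7384 TPM at 8 months. The 18-month libraries stood in the same order for Scgb1a1 as for Fam183b, and the ages overlapped for Scgb1a1. At 8 months the order differed between these genes, and Sftpc, given below, shared the 18-month order. Cyp2f2 lay at 363.3 ± 124.5 and 188.5 ± 45.9 TPM and Cbr2 at 192.6 ± 68.1 and 162.1 ± 68.1 TPM (SD, n = 3). None of the 18 alveolar epithelial markers had a higher mean at 18 months (36.8% of all genes above 0), and 3 were lower without overlap (11.7%). Sftpc lay at 6399, 6185 and 3945 TPM against 4880, 5652 and 11881 TPM. Their summed level ran from 4807 to 7670 TPM at 18 months and from 5884 to 13839 TPM at 8 months.

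Of 16 markers shared by epithelial cells, 10 had a higher mean at 18 months (36.8% of all genes above 0) and 1 was higher without overlap (4.7%). Their sums were 76.1 to 114.8 TPM at 18 months and 58.8 to 136.3 TPM at 8 months. Of the macrophage markers, 15 of 18 had a higher mean (36.8%) and 2 were higher without overlap (4.7%). Their sums ran from 987.9 to 1813 TPM at 18 months and from 662.2 to 1872 TPM at 8 months. Lymphocyte markers summed to 25.2 to 32.1 TPM at 18 months and 23 to 72.0 TPM at 8 months. Fibroblast and smooth muscle markers were lower, with 9 of 16 lower without overlap (11.7% of all genes above 0) and sums of 32.9 to 42.1 TPM against 57.7 to 85.9 TPM. Of 10 mesothelial markers, 8 lay above 0 and under 1 TPM and Bnc1 was listed at 0 throughout, and Krt19, which other epithelia also express, was the exception. For none of these lists was the part in the difference of the cilium genes tested.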

How the data were processed

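The deposited TPM were made by the authors with kallisto, and the genome build was mm10, per the submitters' processing notes. The kallisto version, the transcript set and the handling of strand were not given in the sources used here. Per the labels' protocols, each SMARTer Ultra Low kit library started from 10 ng of RNA and reads were 100 bp paired-end. Libraries sum to between 869315 and 876126 TPM and hold 17325 to 17513 genes above 0. Read depth is unknown, since TPM keep none. Pearson's r between libraries on the log2 scale ran from 0.974 to 0.982 for pairs of the same age, and from 0.966 to 0.977 for pairs of different age. Of 24520 identifiers, 24298 matched GENCODE M21.

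Values were tested in R 4.3.3 with limma 3.58.1 on log2(TPM + 1), with an intensity trend, over the 12748 genes averaging 1 TPM or more, 2-sided, with Benjamini-Hochberg adjustment at 0.05 and 95% intervals. On simulated data for these 12748 genes, limma called 9, 35, 45 and 49 of 50 genes changed by 0.5, 1, 2 and 3 (log2), and 2 unchanged genes. The changed genes were drawn only from genes at about 5 TPM or more. Of the 32 other members tested, 11 averaged that much, so these rates do not cover the scarcer members. The members and lists were chosen with earlier results of these data known. Eligible to be named were Fam183b, Foxj1, the 25 other members with the highest mean TPM, and the 8 highest members under 1 TPM without overlap. Also eligible were the 4 genes per cilium list with the lowest p, the top 3 markers per list, and the neighbours of Fam183b. Tekt1, Cfap161, Rsph14, Drc7, the remaining dyneins and assembly factors, Cfap57, Rsph6a, Mcidas, Gmnc, the RFX genes, Deup1, Capsl, Ccdc153, Gas8, Ccdc65, Iqcg, Tcte1 and Fbxl13 were chosen after their values were seen. Of 304 list entries, 301 matched. Promoter sequences are from RefSeq (GRCm38.p6).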

Additional observations from a re-analysis of the deposited data

How the results depend on the processing

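In all alternatives run, 0 members other than Fam183b passed (limma), and the lowest adjusted p of any was 0.0715. The number of genes called in all, 3, was 0 with no filter (669 higher and 1534 lower at an unadjusted p under 0.05), 0 with the replicate block, 16 with median-of-ratios scaling (8 higher, 8 lower), 16 after quantile normalization (9 higher, 7 lower), 28 among protein-coding genes alone and 0 to 4 when 1 library was left out. The cause was not tested. Deviations of same-numbered libraries correlated at -0.012, -0.090 and 0.057, and not every library correlated best with its own number. With 3 libraries of each age, these values cannot tell whether the replicate numbers pair samples. The log2 difference of Fam183b was 1.83 with a pseudocount of 0.1, 1.64 with 0.5 and 1.39 to 1.51 with 1 library left out. Its excess over the median of the other tested members (1.37) was 1.72 and 1.54 with those pseudocounts and 1.28 to 1.40 with 1 library left out. Smaller pseudocounts shrink low values less. Its excess over the mean of the others, 1.43, was 1.59 over members of at least 1 TPM and 1.37 to 1.49 with 1 library left out. The members' median was 0.063 to 0.13 with 1 library left out. The number of members lower without overlap, 4, was 3 under median-of-ratios scaling, 4 after quantile normalization and 4 to 7 with 1 library left out, 7 without the first library of either age. The share of all genes, 11.7%, was 8.48%, 9.21% and 13.8 to 22.7% in these settings. The number higher without overlap was 19 with median-of-ratios scaling (7.63% of all genes) and 22 with quantile normalization (7.5%). The number with a higher mean was 52 (50.1%) and 50 (48.3%), alternatives chosen after seeing the data. With 1 library left out, 42 to 50 had a higher mean (32.9 to 42.4% of all genes), and 14 to 19 ciliated markers and 30 to 36 axoneme genes were higher without overlap. With fewer libraries groups overlap less often in any gene, and the share of all genes higher without overlap rose from 4.7% to 6.73 to 8.86%. Of 32 tested members, 22 kept their direction in every alternative and 10 with values near 0 did not. Turned values were, with median-of-ratios scaling, Dnah2 0.061, Dnah12 0.011, Tekt5 0.069 and Dnaaf3 0.018. With quantile normalization they were Dnah2 0.053 and Tekt5 0.068. With 1 library left out, the range was -0.079 to 0.082 for Dnah2, -0.11 to 0.064 for Dnah12, -0.092 to 0.11 for Rsph3b, -0.16 to 0.33 for Tekt2, -0.11 to 0.25 for Cfap20, -0.14 to 0.16 for Cfap61, -0.035 to 0.18 for Cfap157, -0.12 to 0.14 for Tekt5, -0.22 to 0.22 for Dnaaf3 and -0.22 to 0.34 for Cfap77. Values under 1 TPM are limited by a depth that is unknown.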
